A study of Mus musculus with 6 samples.

Results

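Genes of the endoplasmic reticulum (ER) folding machinery and of the unfolded protein response were followed in mouse Th17 cultures grown with oligomycin and with the vehicle DMSO. The 10 genes were chosen by name, with earlier results of these data known: Hspa5, Hsp90b1, Sdf2l1, Manf, Pdia3, Pdia4, Pdia6, Xbp1, Herpud1 and Sel1l. Of these, 9 had a row of their own among the 10041 rows of the deposited table, and all 9 were tested among 9986 genes. Pdia4 had none: it appeared only in a row combined with the microRNA gene Mir704, which is described apart. Oligomycin, given at 2.5 ng/ml, blocks the mitochondrial ATP synthase and thereby oxidative phosphorylation. Cells of both groups began as naive CD4 T cells. Both were stimulated for 48 h through CD3e (antibody at 10 µg/ml) and CD28 (antibody at 1 µg/ml), and Th17 differentiation was driven by IL-23 at 10 ng/ml, TGF-β1 at 2.5 ng/ml and IL-6 at 20 ng/ml. The groups held 3 oligomycin libraries and 3 DMSO libraries, and the labels used here give no mouse strain, age or sex. Nothing in the labels says that the libraries of a group came from separate animals, so p-values measure the spread between these libraries, which may be technical. Expression was given as FPKM, defined as the fragments of a gene divided by its transcript length and by the number of fragments mapped in that library. Levels of different genes can thus be compared per unit of length. Whether the submitters' tools also scaled the values between libraries was not examined.

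Proteins that enter the ER are folded there by chaperones of the Hsp70 and Hsp90 families, by lectins that bind their sugars and by disulfide isomerases that form and rearrange their cystine bonds. When unfolded proteins accumulate, the sensors IRE1, ATF6 and PERK start the unfolded protein response: IRE1 splices the Xbp1 mRNA into the form that encodes an active transcription factor, ATF6 is cleaved into one, and PERK slows translation and favours that of ATF4. The first pair of factors induces chaperones and the machinery of ER-associated degradation (ERAD), which returns misfolded proteins to the cytosol for the proteasome. In lymphocytes XBP1 is best known for its part in antibody-secreting plasma cells, and helper T cells also make large amounts of secreted cytokines after activation.

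Some of the members hold known elements of this response in their promoters. Sequences of the 250 bases before the RefSeq start (build GRCm38.p6) were at hand for 9 of the 10 genes, all except Manf. The ER stress element, ERSE, was searched as CCAAT followed after any 9 bases by CCACG, its variant ERSE-II as ATTGG followed after any 1 base by CCACG, the unfolded protein response element UPRE as TGACGTGG and the element bound by C/EBP and ATF factors as TGATGNAA, each on both strands. ERSE was found in 3 of the 9 promoters (Hspa5, Hsp90b1 and Pdia6), against 0.113% of 32851 mouse promoters of the same length. ERSE-II was found in that of Herpud1 (1 of 9, against 0.0304% of all promoters), which also held the C/EBP-ATF element (1 of 9, against 3.45%). UPRE was found in 0 of 9, against 0.563% of all promoters. The members were chosen by name as genes of ER folding and of this response, so these contrasts with all promoters may follow from that choice. No 2 matches overlapped. The 4 promoters with a match are printed 5′ to 3′ on the strand of the gene, followed by those of Sdf2l1, which had the steepest fall among the members, and Sel1l, which rose, both without a match; capitals mark the fixed letters of a match.
Hspa5, chr2:34771840-34772089, plus strand: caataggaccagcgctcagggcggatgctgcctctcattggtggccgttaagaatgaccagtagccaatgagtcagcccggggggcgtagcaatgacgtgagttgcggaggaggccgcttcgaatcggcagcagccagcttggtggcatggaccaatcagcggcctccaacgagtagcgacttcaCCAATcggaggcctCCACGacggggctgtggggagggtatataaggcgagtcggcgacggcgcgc
Hsp90b1, chr10:86705445-86705694, minus strand: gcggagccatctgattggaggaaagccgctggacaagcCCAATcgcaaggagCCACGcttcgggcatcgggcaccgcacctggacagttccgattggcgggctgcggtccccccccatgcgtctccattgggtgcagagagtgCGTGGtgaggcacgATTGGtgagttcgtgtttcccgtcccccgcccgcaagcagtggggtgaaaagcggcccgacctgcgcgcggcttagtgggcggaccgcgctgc
Pdia6, chr12:17266339-17266588, plus strand: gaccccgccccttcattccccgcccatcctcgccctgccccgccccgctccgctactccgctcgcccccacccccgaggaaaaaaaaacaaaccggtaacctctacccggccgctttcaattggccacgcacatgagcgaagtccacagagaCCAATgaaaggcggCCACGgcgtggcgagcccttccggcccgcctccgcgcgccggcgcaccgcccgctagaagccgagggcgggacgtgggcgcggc
Herpud1, chr8:94386179-94386428, plus strand: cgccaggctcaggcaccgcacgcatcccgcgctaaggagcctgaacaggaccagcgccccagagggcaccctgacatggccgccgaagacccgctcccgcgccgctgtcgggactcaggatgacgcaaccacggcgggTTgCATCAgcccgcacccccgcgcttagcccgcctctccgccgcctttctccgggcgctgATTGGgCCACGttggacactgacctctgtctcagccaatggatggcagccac
Sdf2l1, chr16:17132384-17132633, minus strand: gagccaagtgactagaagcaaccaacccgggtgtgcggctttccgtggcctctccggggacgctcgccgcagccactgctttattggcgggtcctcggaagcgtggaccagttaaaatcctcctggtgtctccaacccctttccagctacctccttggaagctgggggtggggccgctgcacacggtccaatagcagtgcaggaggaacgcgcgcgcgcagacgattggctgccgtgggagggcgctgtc
Sel1l, chr12:91849158-91849407, minus strand: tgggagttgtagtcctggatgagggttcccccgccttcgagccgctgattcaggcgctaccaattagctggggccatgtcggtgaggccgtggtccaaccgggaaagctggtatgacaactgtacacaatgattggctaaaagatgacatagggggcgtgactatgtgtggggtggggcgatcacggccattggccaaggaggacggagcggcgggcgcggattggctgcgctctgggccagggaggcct
Counted back from the base before the start (position -1), the ERSE of Hspa5 spanned positions -65 to -47 and that of Pdia6 positions -98 to -80. Hsp90b1 had a forward ERSE at positions -212 to -194 and a reverse one at -107 to -89. In Herpud1 ERSE-II lay at positions -52 to -42, and the C/EBP-ATF element on the reverse strand at -112 to -105. The GENCODE M21 models of Hspa5, Hsp90b1 and Pdia6 begin farther upstream, within the stretch printed. That of Hspa5 begins at 34771970, before its ERSE, so by that model the element lies inside the gene. Those of Hsp90b1 and Pdia6 begin downstream of their ERSE matches. A match is a description of letters, and binding was not measured in these libraries.

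Most of the chaperone and isomerase genes among the members were lower with oligomycin, and both ERAD genes were higher. In the limma test 6 of the 9 members fell (Hsp90b1, Sdf2l1, Manf, Pdia3, Pdia6 and Xbp1), 2 rose (Herpud1 and Sel1l) and 1, Hspa5, did not pass. Of all genes tested 30.2% passed an adjusted p of 0.05, with 16.1% lower and 14% higher. The ratios of the group means ran from 2.31-fold lower (Sdf2l1) to 1.70-fold higher (Herpud1), and the median log2 change of the 9 was -0.54, against -0.00 over all genes tested. The members were chosen with earlier results of these data known, so contrasts with all genes may follow in part from that choice. In the 7 secretory pathway lists described below, without the members, 13.1% of tested genes were lower and 8.76% higher. The groups did not overlap for any of the 9 members, with oligomycin below DMSO in 7 and above it in 2. Over all genes tested 47.3% did not overlap, 24.3% with oligomycin below and 23.1% with oligomycin above. Summed over the 9 genes the libraries held 1051, 781 and 871 FPKM with oligomycin, against 1367, 1214 and 1228 FPKM with DMSO. In cultures of this kind fewer cells of a type and less RNA per cell cannot be told apart, and FPKM are relative levels, not amounts per cell.

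**Figure D1:**
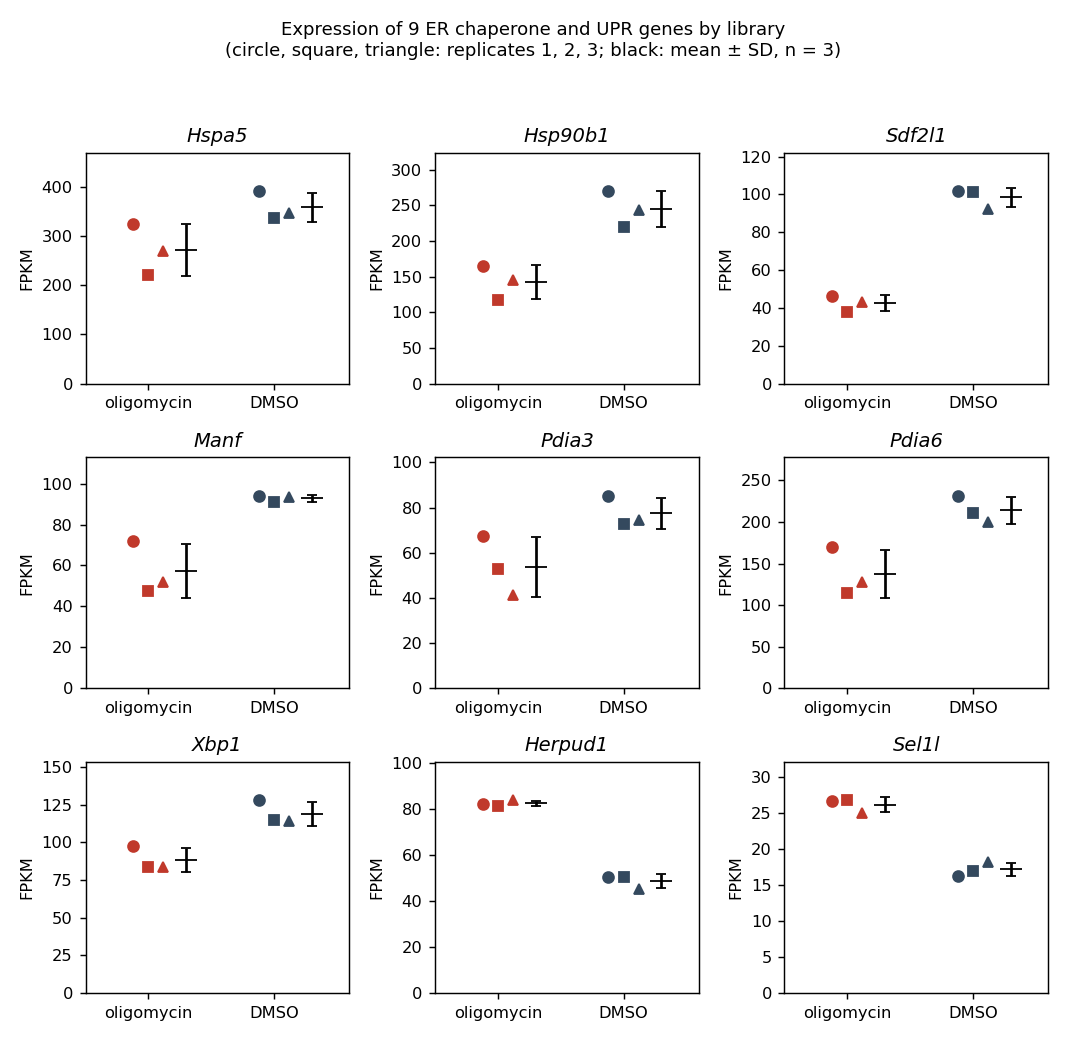
FPKM (vertical axes, from 0) of the 9 genes with a row of their own in each oligomycin (red, left) and DMSO (dark, right) library; circles, squares and triangles are replicates 1, 2 and 3 by the column numbers, and black marks are the mean ± SD (n = 3). Oligomycin values lay below all DMSO values in 7 panels and above them in those of Herpud1 and Sel1l.

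Of the Hsp70 and Hsp90 chaperones, Hspa5 encodes BiP, the ER Hsp70 that binds nascent chains and holds the stress sensors inactive, and it was the most abundant member. It lies on chromosome 2, 34772090 to 34776529 (GRCm38, row XLOC_010784). Hspa5 stood at 324, 219.7 and 269 FPKM in the oligomycin libraries, against 390.3, 336 and 347 FPKM in the DMSO libraries. Every oligomycin value lay below the lowest DMSO value, by only 11.6 FPKM for oligomycin replicate 1. The means were 271 ± 52.3 FPKM with oligomycin and 358 ± 28.7 FPKM with DMSO (SD, n = 3 each). The log2 change of -0.41 (SE 0.17) did not pass the limma test (adjusted p = 0.0913, unadjusted p = 0.0352). Without oligomycin replicate 1 it was -0.55 and passed (adjusted p = 0.0234).

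Hsp90b1 encodes GRP94, the ER member of the Hsp90 family, which folds integrins and Toll-like receptors (chromosome 10, 86690841 to 86705444). It had 165, 117 and 145 FPKM with oligomycin, against 269.7, 219.8 and 244 FPKM with DMSO. The groups stood well apart, with the highest oligomycin value below the lowest DMSO value by 54.97 FPKM. Hsp90b1 averaged 142 ± 24.1 FPKM in oligomycin cultures and 245 ± 24.95 FPKM in DMSO cultures (SD, n = 3 each), 1.72-fold lower with oligomycin. It fell by 0.79 on the log2 scale (SE 0.16, limma adjusted p = 0.00741). In the GENCODE M21 annotation 415 of its 4032 exon bases are also exon of 1810014B01Rik, a transcribed pseudogene on the other strand; the strand of the libraries is not given in the sources used here, so reads there cannot be told apart.

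Sdf2l1 and Manf are cofactors of BiP. Sdf2l1, which with a J-protein partner keeps BiP clients soluble (chromosome 16, 17130138 to 17132383), had the steepest fall of the 9. It was at 46.4, 37.96 and 43.2 FPKM with oligomycin, against 102, 101 and 92.5 FPKM with DMSO. Each oligomycin library held close to the same low level, and none came near the DMSO range. The mean was 42.5 ± 4.28 FPKM with oligomycin and 98.4 ± 5.16 FPKM with DMSO (SD, n = 3 each), a log2 change of -1.19 (SE 0.12, limma adjusted p = 0.000268). Manf, a small protein that binds BiP and is itself secreted under ER stress (chromosome 9, 106887415 to 106891938), had 72.1, 47.4 and 52.1 FPKM with oligomycin, against 94.0, 90.9 and 93.3 FPKM with DMSO. The DMSO libraries lay close together, and oligomycin replicate 1 was the nearest to them. Manf averaged 57.2 ± 13.1 FPKM with oligomycin and 92.7 ± 1.64 FPKM with DMSO (SD, n = 3 each) and fell by 0.71 (SE 0.16, limma adjusted p = 0.0117). Of the 3524 exon bases of Manf in GENCODE M21, 146 are shared with Dcaf1 and 166 with 4930524O07Rik, both on the other strand.

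Both disulfide isomerases with a row of their own fell. Pdia6, which reduces and reshuffles disulfides and also restrains IRE1 (chromosome 12, 17266595 to 17324730), had 169, 115 and 127 FPKM with oligomycin, against 231, 211 and 199 FPKM with DMSO. Its means were 137 ± 28.5 FPKM with oligomycin and 214 ± 16.1 FPKM with DMSO (SD, n = 3 each), 1.56-fold lower with oligomycin (log2 change -0.65, SE 0.16, limma adjusted p = 0.0175). GENCODE M21 ends Pdia6 at 17284770, short of the end of the row, so the row may hold reads from outside the gene. Of the 3745 exon bases of Pdia6, 50 are shared with Atp6v1c2 on the other strand. Pdia3, also called ERp57, works on glycoproteins held by calnexin and calreticulin and is part of the MHC class I loading complex (chromosome 2, 121413902 to 121438686). Pdia3 had 67.3, 52.7 and 41.2 FPKM with oligomycin, against 85.2, 72.7 and 74.4 FPKM with DMSO. The nearest libraries of the groups, oligomycin replicate 1 and DMSO replicate 2, differed by 5.32 FPKM. It averaged 53.7 ± 13.1 FPKM with oligomycin and 77.4 ± 6.82 FPKM with DMSO (SD, n = 3 each) and fell by 0.54 (SE 0.18), just past the threshold (limma adjusted p = 0.0474). The call of Pdia3 was lost when any library except oligomycin replicate 1 was left out (limma adjusted p from 0.0815 to 0.143), and that of Pdia6 without oligomycin replicate 3 (0.0618) or DMSO replicate 1 (0.0666). Pdia3 was also not called after quantile normalization (0.093), after rescaling to the sum without small RNA rows (0.0691), with no filter on low values (0.0522) and with no intensity trend (0.0569).

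Pdia4 (ERp72), a further isomerase, could not be read apart from Mir704, whose gene lies within its bounds. The combined row (chromosome 6, 47796141 to 47813512) stood at 102, 94.3 and 99.1 FPKM with oligomycin, against 104, 453 and 104 FPKM with DMSO. A single library, DMSO replicate 2, was 4.35 times as high as the next highest, and the other 5 lay within 9.88 FPKM of each other. The row was not called (log2 change -0.78, SE 0.49, limma adjusted p = 0.257), and without DMSO replicate 2 its log2 change was -0.08 (adjusted p = 0.701). The row is left out of all counts of members by expression, whereas the promoter of Pdia4 was among those searched.

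Xbp1 encodes the transcription factor whose mRNA is spliced by IRE1 (chromosome 11, 5520967 to 5525872). It was at 97.4, 83.3 and 83.8 FPKM with oligomycin, against 128, 115 and 114 FPKM with DMSO. Replicates 2 and 3 lay within 1 FPKM of each other in each group, and replicate 1 was the highest in both. The means were 88.2 ± 8.0 FPKM with oligomycin and 119 ± 7.83 FPKM with DMSO (SD, n = 3 each), 1.35-fold lower with oligomycin (log2 change -0.43, SE 0.12, limma adjusted p = 0.0285). Leaving out any library except oligomycin replicate 1 ended the call (adjusted p from 0.066 to 0.109), and so did quantile normalization (0.0875) and rescaling without small RNA rows (0.0534). One value per gene does not separate spliced from unspliced Xbp1 mRNA, so the activity of IRE1 was not measured.

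The ERAD members went the other way. Herpud1, a membrane protein that organizes the ubiquitin ligase complex of the ER (chromosome 8, 94386500 to 94395358), had 82.4, 81.5 and 83.8 FPKM with oligomycin, against 50.5, 50.4 and 45.1 FPKM with DMSO. The oligomycin libraries agreed closely, and each lay above every DMSO library. Herpud1 averaged 82.5 ± 1.16 FPKM in oligomycin cultures and 48.7 ± 3.11 FPKM in DMSO cultures (SD, n = 3 each) and rose by 0.75 (SE 0.11, limma adjusted p = 0.00149). Sel1l, the adaptor that hands misfolded proteins to the ligase HRD1 (chromosome 12, 91806043 to 91849157), was the least abundant member. It had 26.7, 26.8 and 25.01 FPKM with oligomycin, against 16.3, 17.0 and 18.2 FPKM with DMSO. Its means of 26.2 ± 0.996 FPKM with oligomycin and 17.2 ± 0.965 FPKM with DMSO (SD, n = 3 each) were 1.52-fold apart, and it rose by 0.58 (SE 0.11, limma adjusted p = 0.00483).

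Ratios taken within a library restate these opposite directions in a form that no scaling between libraries can move. Herpud1 over Hspa5 was 0.254, 0.371 and 0.311 with oligomycin, against 0.129, 0.150 and 0.130 with DMSO, a 2.29-fold higher mean with oligomycin. Sel1l over Hspa5 was 0.0824, 0.122 and 0.0930 with oligomycin, against 0.0418, 0.0505 and 0.0524 with DMSO. Sdf2l1 and Hsp90b1, both lower with oligomycin, were also lower relative to Hspa5. Sdf2l1 over Hspa5 was 0.143, 0.173 and 0.161 with oligomycin, against 0.260, 0.301 and 0.266 with DMSO. Hsp90b1 over Hspa5 was 0.508, 0.532 and 0.541 with oligomycin, against 0.691, 0.654 and 0.703 with DMSO. This does not extend to every lower member: the log2 change of Xbp1 (-0.43) was close to that of Hspa5 (-0.41). With oligomycin Herpud1 and Sel1l lay above every DMSO value and Hspa5 below, so separate groups in their ratios to Hspa5 follow from those values. Groups overlapped for none of these 4 ratios. They are among 6 computed, all chosen after the members' values were seen; the exact two-sided permutation p was 0.1 for each of the 6, before and after Benjamini-Hochberg adjustment, the smallest that 3 libraries against 3 allow.

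**Figure D2:**
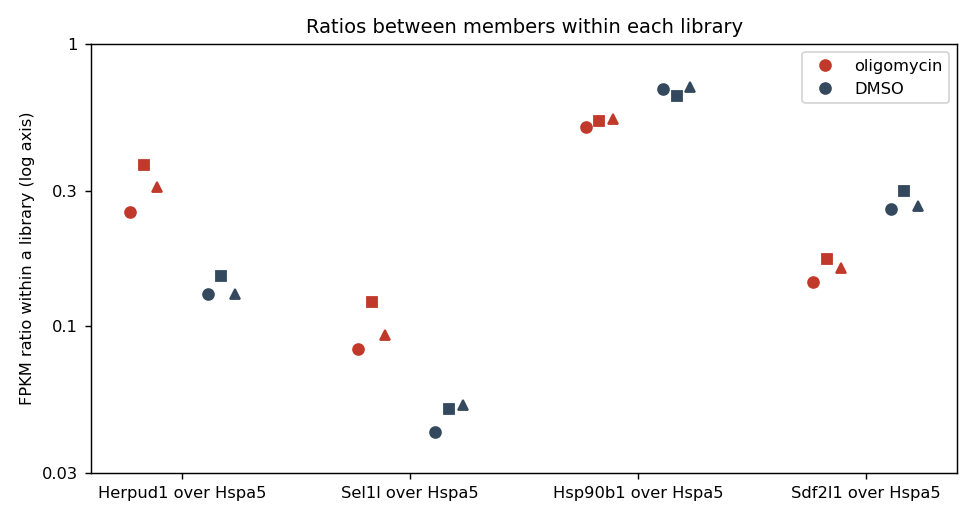
Ratios of FPKM between pairs of members within each library (vertical log axis), with oligomycin libraries in red on the left and DMSO libraries in dark on the right of each pair; circles, squares and triangles are replicates 1, 2 and 3. Herpud1 and Sel1l were higher relative to Hspa5 with oligomycin, and Hsp90b1 and Sdf2l1 were lower.

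The calls differed in how much they rested on single libraries and settings. Sdf2l1, Hsp90b1, Manf, Herpud1 and Sel1l passed under each of the 15 alternatives tried, of which 6 leave out a library each. Pdia6 passed under 13, Xbp1 under 8, Pdia3 under 6 and Hspa5 under 2. For none of the 9 did the direction turn under any of them. Among the 8 members called, oligomycin replicate 1 was the oligomycin library nearest to the DMSO mean for 6; over the 3013 genes called it was the nearest for 54.7%. Rescaling each library to its sum without small RNA rows moved the median log2 change of all genes by 0.10, and of the called genes 60.0% were then higher (1914 of them, with 1277 lower), against 46.6% without it (1403 higher, 1610 lower); the changes of Herpud1 and Sel1l remained positive and those of the other 7 negative.

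**Figure D3:**
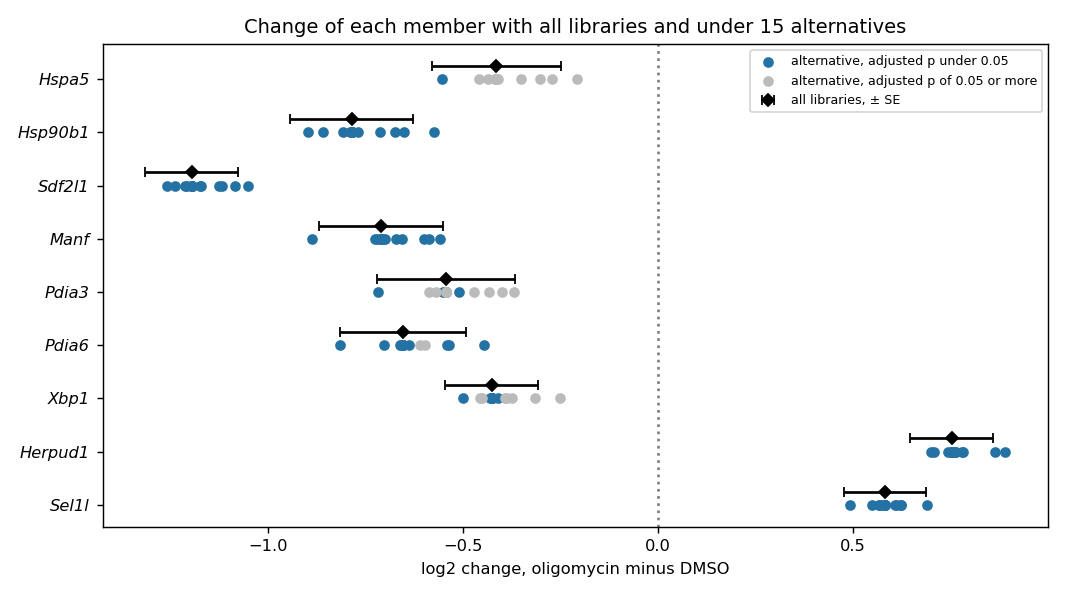
Log2 change (horizontal axis, oligomycin minus DMSO, log2 of FPKM + 1) of each of the 9 genes with all libraries (black diamonds, ± SE) and under 15 alternative settings (points; blue where the adjusted p was under 0.05, grey where it was not). All points of Herpud1 and Sel1l lie right of 0 and all points of the other 7 left of it, and those of Hspa5, Pdia3 and Xbp1 are in large part grey.

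The other genes of each branch were read from 9 lists of 194 genes, written from textbook knowledge with the members' behaviour known; 169 were tested and 25 had no row of their own. In the list of ER Hsp70 and Hsp90 chaperones and their cofactors, 6 of 20 tested genes fell, 2 rose and 12 were not called (median log2 change -0.17). Without the 4 members, 3 of 16 fell and 2 rose (median -0.00), against 16.1% and 14% of all genes. Dnajc10, an ER reductase and J-protein partner of BiP, averaged 23.2 ± 2.22 FPKM with oligomycin and 39.4 ± 5.16 FPKM with DMSO (limma adjusted p = 0.00454). Sec63, the J-protein of the translocon, and Creld1 also fell, by 0.42 and 0.55. Dnajc1, a J-protein of the ER membrane, rose by 0.51 (adjusted p = 0.00904) and Mesdc2, a chaperone of LDL receptor relatives, by 0.33. Some of these calls were lost under other settings: Sec63 was not called when any library except oligomycin replicate 1 was left out (adjusted p from 0.0821 to 0.121), Creld1 not without oligomycin replicate 3, DMSO replicate 1 or DMSO replicate 3 (0.0624 to 0.101), and Mesdc2 not without any of the 6 (0.0676 to 0.143). Sec63 and Creld1 were also not called after rescaling without small RNA rows (0.0806 and 0.0501), nor Mesdc2 with no intensity trend (0.0529). Hyou1, the nucleotide exchange factor of BiP, stood at 70.2 ± 8.97 FPKM with oligomycin and 69.97 ± 5.63 FPKM with DMSO, and Dnajb11, another J-protein partner, at 60.6 ± 6.76 FPKM with oligomycin and 67.1 ± 1.38 FPKM with DMSO; neither passed (adjusted p = 0.998 and 0.355), and the log2 change of Hyou1 was 0.15 after quantile normalization and 0.11 after rescaling without small RNA rows.

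Among the disulfide and prolyl isomerases 7 of 21 tested genes fell (33.3%) and 3 rose (14.3%), against 16.1% and 14% of all genes tested. Without Pdia3 and Pdia6 these were 5 (26.3%) and 3 (15.8%) of 19 (median 0.01). Fkbp2, a prolyl isomerase of the ER lumen, averaged 15.7 ± 2.29 FPKM with oligomycin and 34.5 ± 2.44 FPKM with DMSO (limma adjusted p = 0.000697). Prdx4, the peroxiredoxin that oxidizes disulfide isomerases with hydrogen peroxide, averaged 35.4 ± 3.10 FPKM with oligomycin and 81.1 ± 13.5 FPKM with DMSO (adjusted p = 0.000823). Ero1l, the oxidase that recharges them, fell by 0.86 (adjusted p = 0.0133). P4hb, the founding member of the isomerase family, was named after its values were seen: it averaged 208 ± 27.3 FPKM with oligomycin and 291 ± 28.6 FPKM with DMSO (adjusted p = 0.0354). P4hb was not called when any library except oligomycin replicate 1 was left out (adjusted p from 0.0738 to 0.119), after quantile normalization (0.0881) or after rescaling without small RNA rows (0.051). Those that rose were Tmx4, a thioredoxin-like membrane protein, Vkorc1, which regenerates vitamin K, and Qsox1, a sulfhydryl oxidase, by 0.72, 0.61 and 0.52. Leaving out DMSO replicate 3 ended the call of Vkorc1 (adjusted p = 0.0628), and Qsox1 was not called without oligomycin replicate 1 or 2 or DMSO replicate 2 or 3 (0.0501 to 0.0932). Ppib (cyclophilin B) and Erp29, both abundant, were not called (log2 changes 0.08 and 0.09, adjusted p = 0.68 and 0.618). Fewer of this list fell when a library was left out, with 3 falls without DMSO replicate 1 and 4 without oligomycin replicate 2, oligomycin replicate 3 or DMSO replicate 3; leaving out DMSO replicate 3 left 1 rise.

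Of 10 lectin chaperones and related genes tested, 0 fell and 1 rose (10%) in the limma test, against 16.1% and 14% of all genes tested. At an unadjusted p under 0.05 there were also 0 lower and 1 higher. Without oligomycin replicate 1 the number that fell was 3. Calr (calreticulin) averaged 361 ± 71.5 FPKM with oligomycin and 427 ± 29.9 FPKM with DMSO, and Canx (calnexin) 167 ± 34.2 FPKM with oligomycin and 193 ± 11.3 FPKM with DMSO; neither passed (adjusted p = 0.271 and 0.311). Without oligomycin replicate 1 Calr passed, as lower with oligomycin (adjusted p = 0.0466). Mcfd2, which helps carry glycoproteins out of the ER, rose by 0.75 (adjusted p = 0.00442).

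Of 11 tested sensors and transcription factors of the response 2 rose (18.2%) and 1, Xbp1, fell (9.09%), against 14% and 16.1% of all genes tested. Without DMSO replicate 3 none of the 11 was called, 0 higher and 0 lower. Ern1, which encodes the sensor IRE1 alpha, averaged 4.15 ± 1.19 FPKM with oligomycin and 1.86 ± 0.211 FPKM with DMSO and rose by 0.82 (limma adjusted p = 0.0147; 0.0555 without DMSO replicate 3). Atf6 averaged 11.7 ± 1.65 FPKM with oligomycin and 8.64 ± 0.407 FPKM with DMSO, at the edge of the threshold (adjusted p = 0.0491). Its call was lost in 5 of 6 settings that leave out a library (adjusted p from 0.0791 to 0.14), and under quantile normalization, a pseudocount of 5, no filter, no intensity trend and the block by column number (0.0504 to 0.0719). Tmbim6, a negative regulator of IRE1, and Mbtps1, the protease that cleaves ATF6, were not called (log2 changes -0.07 and -0.14).

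In the ERAD list 4 of 28 tested genes rose and 1 fell; without Herpud1 and Sel1l these were 2 and 1 of 26 (median 0.06), both smaller shares than among all genes. Ngly1, which strips sugars from proteins returned to the cytosol, averaged 27.8 ± 3.13 FPKM with oligomycin and 15.7 ± 2.86 FPKM with DMSO (limma adjusted p = 0.0058). Rnf139, a ubiquitin ligase of the ER membrane, rose by 0.36 (adjusted p = 0.0411), and Edem2, which trims mannose to mark misfolded glycoproteins, fell by 0.46 (adjusted p = 0.038). Neither call held without oligomycin replicate 2, oligomycin replicate 3 or DMSO replicate 1; Rnf139 was also lost without DMSO replicate 3 (adjusted p from 0.0791 to 0.151 over the 4) and Edem2 without DMSO replicate 2 (0.0801 to 0.12 over the 4). Rnf139 was also not called with no intensity trend (0.0518), nor Edem2 after quantile normalization (0.0569). Aup1 was not called (log2 change -0.16, adjusted p = 0.27). With libraries rescaled without small RNA rows 9 of 28 genes of this list rose, Herpud1 and Sel1l among them, and 0 fell. Under that setting 1914 of all 9984 genes tested rose and 1277 fell. Edem2 was then no longer called (limma adjusted p = 0.0583).

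Of 33 tested genes for the translocon, signal peptidase and N-glycosylation 4 fell (12.1%) and 1 rose (3.03%), both below the 16.1% and 14% of all genes tested (median log2 change -0.20). Sec11c, a catalytic subunit of signal peptidase, averaged 46.6 ± 0.876 FPKM with oligomycin and 87.1 ± 9.88 FPKM with DMSO (limma adjusted p = 0.00112). Spcs2 of the same enzyme, Sec61b of the translocon and Rpn1 of the oligosaccharyltransferase fell by 0.51, 0.49 and 0.41, and Srp14 of the signal recognition particle rose by 0.40. These 4 calls were lost when single libraries were left out: Spcs2 without oligomycin replicate 3, DMSO replicate 2 or DMSO replicate 3 (adjusted p from 0.0569 to 0.0761), Sec61b without oligomycin replicate 1 or 2 or DMSO replicate 1 or 3 (0.0531 to 0.133), Rpn1 without any except oligomycin replicate 1 (0.1 to 0.121) and Srp14 without any except oligomycin replicate 2 (0.0533 to 0.128). Sec61b and Rpn1 were also not called after quantile normalization (0.156 and 0.0923) or rescaling without small RNA rows (0.0944 and 0.0815), nor Rpn1 with no intensity trend (0.0509). Krtcap2 and Ssr4, the most abundant genes of the list that were not called, had log2 changes of 0.14 and 0.27 (adjusted p = 0.586 and 0.23); after quantile normalization Ssr4 passed, at 0.49 (0.0247). The number that fell was 9 without oligomycin replicate 1, and 2 when oligomycin replicate 3 or any DMSO library was left out or libraries were rescaled without small RNA rows. Of 23 tested genes of the COPII coat and ER-Golgi traffic 5 fell (21.7%) and 1 rose (4.35%; median -0.17). In this list 3 fell when any DMSO library was left out, and after rescaling 4 fell and 3 rose. Kdelr2, a receptor that returns escaped ER chaperones, averaged 44.4 ± 4.31 FPKM with oligomycin and 65.2 ± 2.01 FPKM with DMSO (adjusted p = 0.00904). Tfg, Sec24d, Sar1b and Surf4, all of ER exit sites, fell by 0.80, 0.70, 0.51 and 0.42, and Tmed3, a cargo receptor, rose by 0.57. Surf4 was not called when any library except oligomycin replicate 1 was left out (adjusted p from 0.0992 to 0.156), Sar1b without DMSO replicate 1 or 3 (0.074 and 0.0655), nor Sec24d without DMSO replicate 2 (0.0618). Quantile normalization also ended the calls of Surf4 (0.15) and Sar1b (0.0526), and Surf4 was lost after rescaling (0.0766), with a pseudocount of 5, no filter, a filter at 5 FPKM and no intensity trend (0.0507 to 0.0566). Sec13 of the coat and the cargo receptor Tmed9 were not called (log2 changes -0.31 and 0.04, adjusted p = 0.115 and 0.816); without oligomycin replicate 1 Sec13 passed (0.0347). Over these 7 lists without the members, with each gene counted once, 18 of 137 tested genes fell (13.1%, against 16.1% of all genes tested) and 12 rose (8.76%, against 14%).

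In the ATF4 and CHOP arm, which the sensor PERK shares with other stress kinases, 10 of 15 tested genes rose and 1 fell (median log2 change 0.87). These shares were 66.7% and 6.67%, against 14% and 16.1% of all genes tested. Trib3 and Atf5, both induced by ATF4, averaged 43.1 ± 9.25 and 33.8 ± 5.92 FPKM with oligomycin and 7.35 ± 1.29 and 5.85 ± 0.880 FPKM with DMSO. Sesn2 and Chac1 rose by 1.67 and 1.71 (limma adjusted p = 0.000235 and 0.000315). Ddit3, which encodes CHOP and was named after its values were seen, had 67.1, 132 and 83.7 FPKM with oligomycin, against 12.8, 36.6 and 21.0 FPKM with DMSO (adjusted p = 0.00431). Among 8 tested relatives of the ER chaperones in the cytosol and mitochondria, 0 rose and 1 fell (12.5%), against 14% and 16.1% of all genes tested. The counts in the limma test were the same at an unadjusted p under 0.05. The gene that fell was the cytosolic Hsp90aa1, at 62.0 ± 12.5 FPKM with oligomycin and 95.6 ± 2.77 FPKM with DMSO (limma adjusted p = 0.0155). Without DMSO replicate 1 or 3 its adjusted p was 0.0527 or 0.0574. Hsp90ab1, its constitutive form, and Hspa9, the mitochondrial Hsp70, were not called (log2 changes -0.19 and 0.15, adjusted p = 0.434 and 0.439); after quantile normalization Hspa9 passed, at 0.36 (0.0491).

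**Figure D4:**
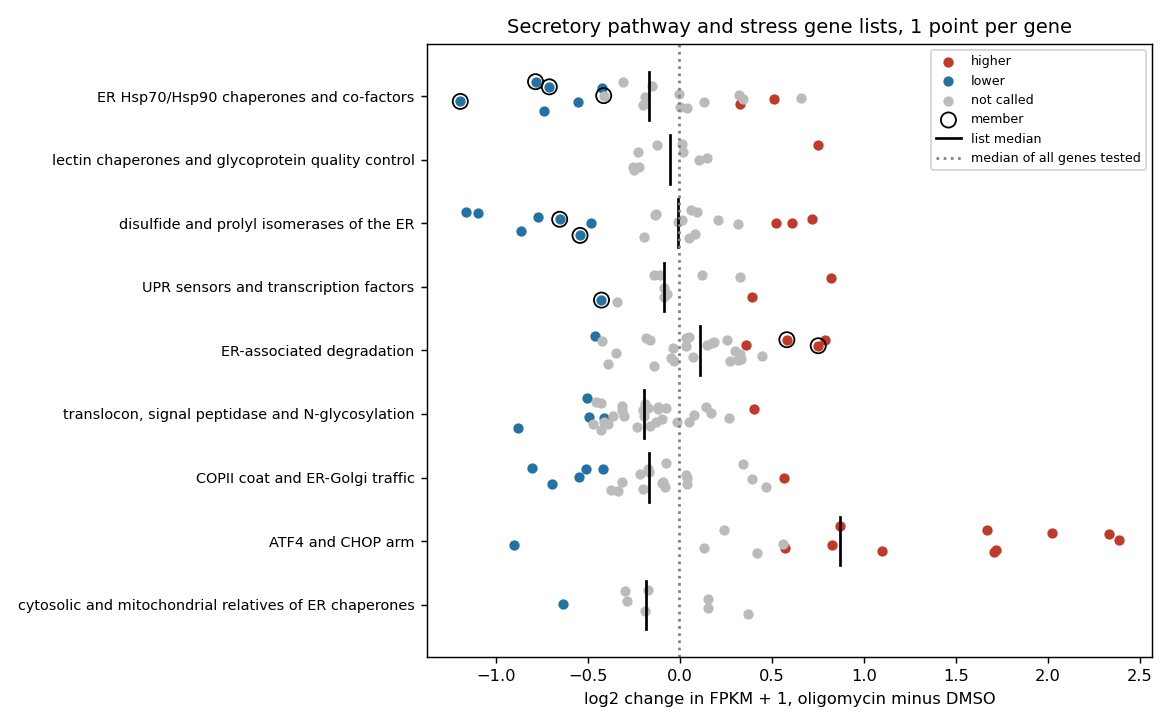
Log2 change (horizontal axis, oligomycin minus DMSO, log2 of FPKM + 1) of every tested gene of the 9 lists, 1 point per gene, coloured by the limma call at an adjusted p of 0.05; rings mark members, black bars list medians and the dotted line the median of all genes tested. List medians lie between -0.20 and 0.11 except in the ATF4 and CHOP arm (0.87).

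The genes whose profile over the 6 libraries was most like that of Hspa5 were Spcs3, a subunit of signal peptidase, Cox6a1 of cytochrome c oxidase, Sfr1, Psmb7 of the proteasome and Fh1 (fumarase). Their root mean square difference from it, in log2(FPKM + 1) centred on the mean of each gene, ran from 0.04 to 0.05. None of the 5 was called (limma adjusted p from 0.0584 to 0.132). Without oligomycin replicate 1 each of them passed (0.0114 to 0.0256), as did Hspa5. Such shared outcomes follow in large part from choosing genes by likeness to Hspa5 over the same 6 libraries. Among the 9985 other tested genes the nearest member was Xbp1, at rank 219, followed by Pdia6 at 494, Manf at 948, Hsp90b1 at 1308 and Pdia3 at 1478. Sdf2l1 ranked 6083, Sel1l 8053 and Herpud1 8693. The measure takes in the size of a change as well as its direction. Sdf2l1 changed in the same direction as Hspa5 but more steeply (log2 changes -1.19 and -0.41), whereas Sel1l and Herpud1 rose.

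The libraries held T cell transcripts throughout. Il17a and Il17f, the cytokines that define Th17 cells, were present in every library: Il17a had 10.8 to 15.4 FPKM with oligomycin and 230.4 to 261 FPKM with DMSO, and Il17f 227 to 377 FPKM with oligomycin and 1354 to 1609 FPKM with DMSO. All 6 T cell markers looked for (Cd3d, Cd3e, Cd3g, Cd4, Cd2 and Cd5) had a row, with sums from 937 to 1127 FPKM with oligomycin and from 1099 to 1242 FPKM with DMSO. They did not move together: Cd2 averaged 319 ± 34.7 FPKM with oligomycin and 489 ± 37.4 FPKM with DMSO and fell (limma adjusted p = 0.0126), whereas the means of Cd3d, Cd3e and Cd3g were 1.16, 1.18 and 1.17 times those with DMSO and were not called. Of the markers of other cells, 0 of 6 for B cells and 0 of 3 for erythroid cells had a row, 1 of 2 for CD8 T cells (Cd8b1, up to 3.30 FPKM with oligomycin and 3.12 FPKM with DMSO), 1 of 4 for NK cells (Klrd1, 5.53 to 23.8 FPKM with oligomycin and 12.8 to 34.6 FPKM with DMSO), 1 of 6 for myeloid cells, 1 of 3 for dendritic cells and 2 of 6 for plasma cells. A gene with no row may still have had a low level, since the lowest mean in the higher group of any row was 1.499 FPKM. Of the plasma cell markers Irf4, which activated T cells also express, had 324 to 434 FPKM with oligomycin and 353 to 414 FPKM with DMSO, and Sdc1 0.799 to 1.15 FPKM with oligomycin and 2.58 to 3.23 FPKM with DMSO. The dendritic marker with a row, H2-Ab1, had 0.819 to 2.65 FPKM with oligomycin and 17.2 to 26.3 FPKM with DMSO, and Cd68 of the myeloid list 2.39 to 5.07 FPKM with oligomycin and 1.08 to 2.07 FPKM with DMSO. H2-Ab1 was named after its values were seen. The part of these genes in the members' changes was not tested. Sequencing depth is unknown, so no counting error can be given for any value.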

How the data were processed

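RNA-seq libraries of mouse Th17 cultures, 3 with oligomycin and 3 with DMSO, were deposited as FPKM per gene and library, per the labels and the file headers. The tools listed in the submitters' processing notes are Cuffdiff 2.2.1.3, Cuffnorm 2.2.1.1, Cufflinks 2.2.1.0 and TopHat2 2.1.0, with the build GRCm38 (mm10). Annotation, filters and strand: not given in the sources used here. Column names give the group and a number from 1 to 3 that is not in the sample titles, so columns were mapped to groups only, and replicate numbers are these column numbers.

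Genes with at least 1 FPKM in at least 3 of 6 libraries entered the test, made on log2(FPKM + 1) by limma 3.58.1 under R 4.3.3 (intensity trend, group alone, two-sided, Benjamini-Hochberg over all genes tested) and called at an adjusted p under 0.05. A fold change on this scale understates that of low genes. The fit was tested on simulated data. Depth is unknown: among the low values of any pair of libraries at most 3 genes stood at one ratio, so whole reads could not be recovered. The libraries' FPKM sums without the 183 small RNA rows ran from 368012 to 394124 with oligomycin and from 392939 to 422972 with DMSO.

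Members and lists were chosen with earlier results of these data known. The genes named are the members, up to 6 called genes of each list with the smallest adjusted p, its 2 most abundant genes not called, 4 genes of the ATF4 and CHOP arm, and the 5 genes nearest to Hspa5. Some genes that these rules name are not reported here. Ddit3, P4hb and H2-Ab1 were added after their values were seen. Alternatives were quantile normalization, rescaling without small RNA rows, pseudocounts of 0.1 and 5, no filter, a filter at 5 FPKM, no trend, leaving out the 1288 rows that share a locus or name several genes, a block by column number, and leaving out each library. Positions are counted from 1; promoters are from RefSeq (GRCm38.p6), and overlaps from GENCODE M21.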

Additional observations from a re-analysis of the deposited data

How the results depend on the processing

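Over the 15 alternatives no member changed direction, and 2 members were called higher in each. The members called lower numbered 3 to 7 when a library was left out (3 without oligomycin replicate 3 or DMSO replicate 1), 4 after quantile normalization or rescaling without small RNA rows and 5 with no filter or no intensity trend. Over all genes, leaving out a library gave 780 to 1387 called higher and 989 to 1861 called lower, and rescaling gave 1914 higher and 1277 lower. The cause of these shifts was not tested. Depth is unknown, so no counting limit can be set.

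After quantile normalization the sensors and transcription factors held 1 gene called higher and 0 lower, ERAD 0 lower, the translocon list 2 higher, the COPII list 3 lower and the cytosolic and mitochondrial relatives 2 higher. After rescaling, with 1914 of all 9984 genes tested called higher, the sensors held 0 lower, ERAD 9 higher and 0 lower, the translocon list 2 lower and the COPII list 3 higher. The sensors held 1 higher with a pseudocount of 5, no filter, a filter at 5 FPKM, no trend or the block. The ATF4 and CHOP arm held 0 lower with the filter at 5 FPKM. The ER Hsp70 and Hsp90 list held 1 higher with no trend or without rows sharing a locus, where the COPII list held 2 higher.

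When a library was left out, the counts higher and lower ran from 1 to 2 and from 4 to 7 in the ER Hsp70 and Hsp90 list, 1 and from 0 to 3 among lectins, from 1 to 3 and from 3 to 6 among isomerases, from 0 to 2 and from 0 to 1 among sensors, from 3 to 5 and from 0 to 3 in ERAD, from 0 to 1 and from 2 to 9 in the translocon list, from 1 to 2 and from 3 to 7 in the COPII list, from 8 to 10 and from 0 to 1 in the ATF4 and CHOP arm, and from 0 to 1 and from 0 to 2 among relatives. Of genes that were not called, the log2 change turned for Hyou1 (0.15 after quantile normalization, 0.11 after rescaling, from -0.10 to 0.0732 with a library left out), Calr (0.0012 after quantile normalization), Tmbim6 (0.13 after quantile normalization and 0.0394 after rescaling), Ppib (from -0.00515 to 0.132 with a library left out) and Krtcap2 (from -0.0363 to 0.238 with a library left out).

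The sample titles share numbers across groups, but the table's columns carry other numbers and could not be tied to them. The column numbers were not taken as pairing the libraries: deviations of same-numbered libraries from their group means correlated at 0.0556, 0.247 and 0.132 across genes, not all above 0.1, and oligomycin replicate 1 correlated better with DMSO replicate 3 (0.117) than with its own number. All remaining pairs of unlike number correlated negatively, from -0.216 to -0.000224, so pairing by the column numbers was not settled. With these numbers as a replicate block 1668 genes were called higher and 1864 lower, and 2 and 7 members, Hspa5 among those lower (limma adjusted p = 0.0474). Under the block ERAD held 2 genes called lower, the translocon list 8 lower and the COPII list 3 higher.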
